A study of Mus musculus with 2 samples.

Results

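The genes described here are 46 genes that cells are known to induce in response to type I interferon, read in immature thymocytes that lack Miz-1 function and in wild-type thymocytes. Members were chosen by name, with earlier results of these data known. Every probe set whose annotation gives only that gene was taken, and 43 of the 46 had at least 1, out of 18193 genes so named on the array. Isg15, Ifi44 and Oas1g had no probe set of their own and are not described by a ratio. The 43 genes were read by 76 probe sets.

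The study hybridised 1 array with RNA of Miz-1 knockout cells and 1 array with RNA of wild-type cells, both from mice on a C57BL/6 background. Miz-1 is a zinc finger transcription factor encoded by Zbtb17, and the knockout mice carry the Miz1-delta-POZ form, which lacks the POZ domain of the protein. The promoter that drives the deletion, the age of the mice and the number of mice per array were not given in the sources used here. The cells of both arrays were thymocytes sorted as negative for lineage markers and CD44 and positive for CD25, the DN3 stage at which thymocytes rearrange the T cell receptor beta gene. The comparison asks how loss of Miz-1 activity alters gene expression at this stage. With 1 array per genotype there is no replicate, so no value has an error between animals, no difference was tested, and each is given by its size alone.

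Type I interferons are secreted proteins that bind a receptor made of IFNAR1 and IFNAR2. The receptor's kinases JAK1 and TYK2 then activate STAT2, which joins IRF9 in the complex ISGF3. This complex binds the interferon-stimulated response element in promoters and turns on a set of genes that sense viral nucleic acid, degrade or edit it, block entry of viruses, or attach the ubiquitin-like protein ISG15 to other proteins. Many cells also keep a low level of these transcripts without infection, and in the thymus interferon beta from epithelial cells is one known source.

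As a group, the interferon response genes had higher signals in knockout cells. Because the list was drawn up with earlier results of these data known, the shares set beside all genes only describe it. Of the 43 members, 19 had a knockout signal at least 2-fold higher, where 4.28% of all genes were, and 0 were 2-fold lower, where 3.34% of all genes were. A log2 ratio of 1 is a 2-fold difference, and values below a floor of 394, the median of all signals on both arrays, were raised to it before the ratio was taken. The median log2 ratio of the 43 members was 0.88, against 0 for all genes. The ratio was at least 4-fold for 5 members, Oas1a, Usp18, Ifitm3, Samd9l and Oasl2, and for 0.313% of all genes. The knockout signal was the brighter one for 38 of the 43 members, and for 51.4% of all genes. Dividing each array by its own median moved the median unfloored log2 ratio of all named probe sets from 0.05 to -0.11, and the share of higher genes among all genes past 2-fold from 56.2% to 37.9%, but left the count of members at 19.

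These counts hold for all 43 members, whether or not their signal was above the floor. Both arrays were above the floor for 34 members, only the knockout array for 5 (Ifit3, Ifitm3, Oasl1, Cmpk2 and Ube2l6), only the wild-type array for Ifitm1, and neither for Ifi204, Mx2 and Oas3. A filter on the wild-type signal gave a like picture, although the floor and the choice of each gene's probe set drew on both arrays. Of the 35 members above the floor on the wild-type array, 16 were at least 2-fold higher, against 4.60% of 10759 such genes, and their median log2 ratio was 0.94 against -0.10. Where only the knockout array was above the floor, the fold is only a lower limit, given as "at least".

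**Figure D1:**
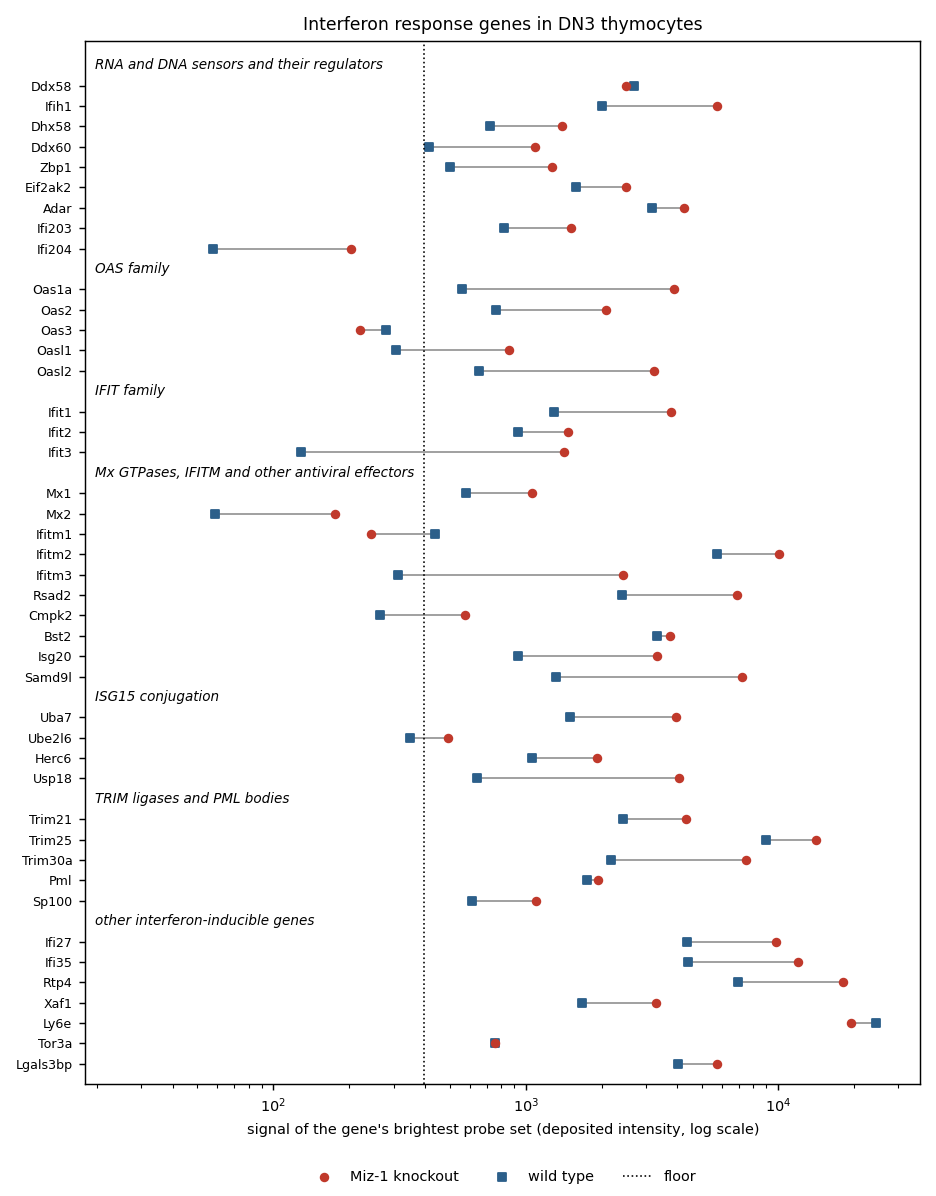
Signal of each interferon response gene on the knockout array (red circles) and the wild-type array (blue squares), for the gene's brightest probe set, on a log axis in deposited intensity units. Genes are grouped by role, the dotted line is the floor of 394, and the knockout circle lies to the right for 38 of 43 genes, the others being Ddx58, Oas3, Ifitm1, Ly6e and Tor3a.

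**Figure D2:**
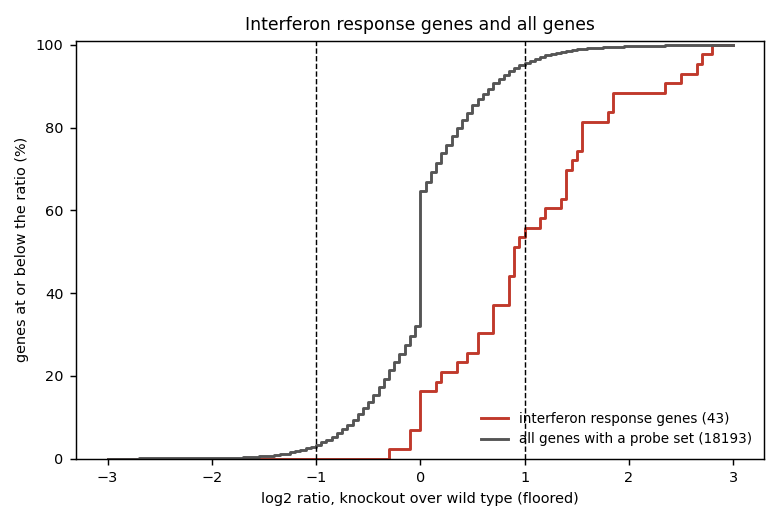
Share of genes, in percent, at or below each floored log2 ratio of knockout over wild type, for the 43 interferon response genes (red) and all 18193 genes with a probe set (grey). Dashed lines mark 2-fold, and the red line lies to the right with its median at 0.88, while the jump of the grey line at 0 holds genes below the floor on both arrays.

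Promoter sequences of members are shown because they hold the letters to which ISGF3 is known to bind. The core of the interferon-stimulated response element was searched as GAAA, any 2 bases and GAAA again, on both strands in the 250 bases before the start of each gene, in RefSeq windows of GRCm38.p6. Such windows existed for 35 of the 46 members, and 12 of the 35 (34.3%) held the core, against 3.46% of 27025 genes. The 6 windows below are written 5′ to 3′ along the gene's strand and end at the base before the start, with the core in capitals. Among the members whose window holds the core and whose signal was above the floor on both arrays, the first 4 have the highest ratios and the last 2 the ratios nearest 0.
Oas1a: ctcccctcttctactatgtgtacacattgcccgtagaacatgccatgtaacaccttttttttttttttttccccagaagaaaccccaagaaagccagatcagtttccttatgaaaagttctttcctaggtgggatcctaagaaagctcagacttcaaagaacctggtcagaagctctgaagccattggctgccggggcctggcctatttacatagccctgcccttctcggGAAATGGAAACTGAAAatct
Trim30a: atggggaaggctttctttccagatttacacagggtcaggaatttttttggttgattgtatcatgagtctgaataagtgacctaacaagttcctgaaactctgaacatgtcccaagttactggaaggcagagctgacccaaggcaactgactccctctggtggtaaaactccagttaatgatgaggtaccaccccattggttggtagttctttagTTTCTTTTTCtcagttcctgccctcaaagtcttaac
Ifit1: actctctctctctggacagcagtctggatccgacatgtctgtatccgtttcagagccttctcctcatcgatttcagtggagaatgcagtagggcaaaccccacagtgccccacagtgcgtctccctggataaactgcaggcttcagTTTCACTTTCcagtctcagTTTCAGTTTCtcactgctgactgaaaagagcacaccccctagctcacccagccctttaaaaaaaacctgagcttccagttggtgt
Rsad2: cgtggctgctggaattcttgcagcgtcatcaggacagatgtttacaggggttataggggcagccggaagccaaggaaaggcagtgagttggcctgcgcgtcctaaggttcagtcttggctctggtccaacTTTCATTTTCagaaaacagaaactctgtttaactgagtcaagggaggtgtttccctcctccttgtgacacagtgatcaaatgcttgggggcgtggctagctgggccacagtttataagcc
Bst2: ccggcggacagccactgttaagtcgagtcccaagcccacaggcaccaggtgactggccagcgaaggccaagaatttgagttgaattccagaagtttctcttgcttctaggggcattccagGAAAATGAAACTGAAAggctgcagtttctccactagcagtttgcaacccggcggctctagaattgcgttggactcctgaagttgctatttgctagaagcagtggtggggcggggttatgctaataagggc
Ifitm2: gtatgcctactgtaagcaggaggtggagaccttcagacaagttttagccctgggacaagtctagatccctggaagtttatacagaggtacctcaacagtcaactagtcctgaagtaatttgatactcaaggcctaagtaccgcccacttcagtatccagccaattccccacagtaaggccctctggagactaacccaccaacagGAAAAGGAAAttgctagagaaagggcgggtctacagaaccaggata

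The Oas1a window, chr5:120907526-120907775 on the minus strand, has 2 overlapping cores between 20 and 5 bases before the start. The Bst2 window, chr8:71537473-71537722 on the minus strand, also has 2 overlapping cores, between 130 and 115 bases before the start. With the same arrangement in both windows, the log2 ratio was 2.80 for Oas1a, the highest of the 43, and 0.17 for Bst2. Ifit1, chr19:34640639-34640888 on the plus strand, has 2 separate cores between 104 and 76 bases before its start. Trim30a, chr7:104465194-104465443 on the minus strand, has 1 core 36 to 27 bases before the start, Rsad2, chr12:26456453-26456702 on the minus strand, has 1 at 120 to 111 bases, and Ifitm2, chr7:140955962-140956211 on the minus strand, has 1 at 46 to 37 bases.

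Members past 2-fold were found with and without the core. Of 10 members with the core and a ratio, 6 were at least 2-fold higher, and the log2 ratios had a median of 1.45 and a range of 0 to 2.80. Of 22 members without it, 8 were at least 2-fold higher, and the median was 0.83 with a range of -0.15 to 2.62. The longer form, in which the core is followed by CT, was found in 7 of the 35 members (20.0%) and in 0.255% of all genes. It was present for Oas1a, Ifit1, Ifit3, Ddx60, Trim30a and Bst2, of which 5 were at least 2-fold higher, and for Oas1g, which has no ratio. Among array genes outside the 46, 443 held the core and 31 of these (6.998%) were at least 2-fold higher, against 4.13% of 14420 such genes with a window. The longer form, which was added to the search later, was held by 30, of which 8 (26.7%) were at least 2-fold higher. The 8 were Gbp2, Gbp3, Gbp7, Irgm1, Slfn8, Trim30d, Ifit1bl2 and Cplane2. The palindromic STAT element TTCNNNGAA, which does not contain the core, was found in 5 of the 35 members (14.3%) and in 8.13% of all genes, and 2 of its 5 members, Oas1a and Isg20, were at least 2-fold higher. Outside the 46, 47 of 1068 genes with that element (4.40%) were so. A match shows that the letters are present and does not show that a factor binds them, and a window without a match says nothing of elements farther away.

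Most genes of the OAS family were higher. These enzymes make oligoadenylates on double-stranded RNA and so activate RNase L, although the OAS-like protein OASL1 acts on translation instead. Oas1a read 3879.6 in knockout cells and 557 in wild-type cells, 6.96-fold higher in the knockout. Oasl2 read 3226 in knockout cells and 651 in wild-type cells, 4.95-fold higher. Oas2 read 2079 in knockout cells and 762 in wild-type cells, 2.73-fold higher. For Oasl1 the knockout signal was 856 and the wild-type signal, 307, lay under the floor, which makes it at least 2.17-fold higher. Thus 4 of the 5 measured members of the family passed 2-fold, and the family median log2 ratio was 1.45. Oas3 was under the floor on both arrays, at 220.4 in knockout cells and 278 in wild-type cells, so no ratio is read for it. Oas2 and Oas3 are neighbours in the RefSeq table, and the next gene beyond Oas2 is Dtx1, a Notch target that encodes an E3 ligase. Dtx1 read 14456 in knockout cells and 2841 in wild-type cells, 5.09-fold higher by that probe set, while its other probe set was under the floor on both arrays.

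The IFIT proteins bind viral RNA that lacks the methylation of host messages and keep it from being translated. Ifit1 read 3761 in knockout cells and 1295 in wild-type cells, 2.90-fold higher. Ifit3 read 1419 in knockout cells and 128 in wild-type cells, a value under the floor, and so was at least 3.60-fold higher. Ifit2 had a smaller difference, with 1475 in knockout cells and 937 in wild-type cells, 1.57-fold higher. The 3 genes lie in 1 cluster of IFIT genes, in which Ifit1bl2, outside the 46, read 1198.5 in knockout cells and 430 in wild-type cells, 2.79-fold higher.

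By their brightest probe sets, the 4 measured genes of the ISG15 conjugation pathway were all brighter in knockout cells, 2 of them at least 2-fold. Usp18, the protease that removes ISG15 from proteins and also blocks signalling at IFNAR2, read 4064 in knockout cells and 641 in wild-type cells, 6.34-fold higher. Uba7, the E1 enzyme that activates ISG15, read 3943 in knockout cells and 1496 in wild-type cells, 2.64-fold higher. Its 3 probe sets did not concur, with log2 ratios that ran from -0.50 to 2.05. Herc6, the main E3 ligase for ISG15 in mice, read 1919.7 in knockout cells and 1064 in wild-type cells, 1.80-fold higher. Of its 3 other probe sets, 1 was at least 2.48-fold higher, 1 at least 1.81-fold higher and 1 under the floor on both arrays. The E2 gene Ube2l6 read 492 in knockout cells and 348 in wild-type cells, at least 1.25-fold higher. The gene for ISG15 itself could not be read alone.

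Among proteins that act on viruses directly, the differences ran from none to more than 6-fold. Ifitm3, which blocks fusion of viruses in endosomes, read 2425 in knockout cells and 311 in wild-type cells, under the floor, and so was at least 6.15-fold higher. Its relatives in the same gene cluster had a smaller and an opposite difference. Ifitm2 read 10119.8 in knockout cells and 5745 in wild-type cells, 1.76-fold higher, and Ifitm1 read 244 in knockout cells and 437 in wild-type cells, at least 1.11-fold lower. Ifitm1 was 1 of only 5 members brighter in the wild type.

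Samd9l, a cytoplasmic protein that restrains viral translation and cell growth, read 7205 in knockout cells and 1317 in wild-type cells, 5.47-fold higher. Isg20, an exonuclease that degrades RNA, read 3324 in knockout cells and 930.5 in wild-type cells, 3.57-fold higher. Rsad2 encodes viperin, which makes a chain-terminating nucleotide, and read 6867 in knockout cells and 2418 in wild-type cells, 2.84-fold higher. All 3 Rsad2 probe sets lay between log2 ratios of 0.99 and 1.57. Cmpk2, a mitochondrial nucleotide kinase gene next to Rsad2, read 573 in knockout cells and 264 in wild-type cells by 1 probe set and 54.5 in knockout cells and 429 in wild-type cells by the other. Its probe sets thus gave opposite signs near the floor, with log2 ratios of 0.54 and -0.12. Bst2, the tetherin gene, whose product holds budding virus at the cell surface, read 3730.0 in knockout cells and 3318 in wild-type cells, 1.12-fold higher. Mx1 read 1062 in knockout cells and 579 in wild-type cells, 1.83-fold higher. Mx2 stayed under the floor, at 176 in knockout cells and 58.8 in wild-type cells. Mx proteins trap viral nucleocapsids, and the C57BL/6 strain is known to carry a defective Mx1 allele.

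The sensors of foreign RNA differed among themselves. Ifih1, which encodes MDA5, a sensor of long double-stranded RNA, read 5759 in knockout cells and 2007 in wild-type cells, 2.87-fold higher. Ddx58, which encodes RIG-I, a sensor of RNA ends, read 2506 in knockout cells and 2688 in wild-type cells, a log2 ratio of -0.10. The other 2 Ddx58 probe sets had wild-type signals under the floor, and were higher by at least 1.47-fold and 1.27-fold. Dhx58, the gene of their regulator LGP2, read 1388 in knockout cells and 726 in wild-type cells, 1.91-fold higher, with all 3 probe sets between log2 ratios of 0.66 and 0.94. Zbp1, a sensor of nucleic acids in the Z form that can start necroptosis, read 1278 in knockout cells and 503 in wild-type cells, 2.54-fold higher, and its second probe set was at least 2.19-fold higher. The helicase gene Ddx60 read 1088 in knockout cells and 415 in wild-type cells by its brighter probe set, 2.62-fold higher, but 75.2 in knockout cells and 449 in wild-type cells by the other, a log2 ratio of -0.19.

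By their brightest probe sets, Eif2ak2, Adar and Ifi203 were under 2-fold. Eif2ak2, the kinase PKR that stops translation, read 2508 in knockout cells and 1582 in wild-type cells, 1.59-fold higher, with its 3 probe sets between log2 ratios of -0.50 and 0.67. Adar, which edits double-stranded RNA and so hides it from sensors, read 4236 in knockout cells and 3179.9 in wild-type cells, 1.33-fold higher. The 2 dimmer Adar probe sets were 2.38-fold and 2.15-fold higher. The PYHIN family gene Ifi203 read 1519 in knockout cells and 824 in wild-type cells, 1.84-fold higher. Its relative Ifi204 read 203 in knockout cells and 57.4 in wild-type cells, both under the floor.

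Of the TRIM ligases and nuclear body genes, Trim30a passed 2-fold by both of its probe sets. It read 7484 in knockout cells and 2186 in wild-type cells, 3.42-fold higher, and 2.63-fold higher by the other probe set. Its neighbour Trim30d, outside the 46, read 3312 in knockout cells and 832 in wild-type cells, 3.98-fold higher, and probe sets of such related genes can share signal. Trim25, a ubiquitin ligase that acts with RIG-I, read 14198 in knockout cells and 8987 in wild-type cells, 1.58-fold higher, and another of its 3 probe sets was 2.68-fold higher. Trim21, a cytosolic antibody receptor, read 4316 in knockout cells and 2425 in wild-type cells, 1.78-fold higher, with a log2 ratio of -0.13 by its other probe set. Sp100, a component of PML bodies, read 1096 in knockout cells and 615 in wild-type cells, 1.78-fold higher. Pml, which builds these bodies, read 1935 in knockout cells and 1758 in wild-type cells, 1.10-fold higher, although a dimmer probe set with 1362 in knockout cells and 517 in wild-type cells was 2.63-fold higher.

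The remaining members included 3 past 2-fold. Rtp4, a chaperone of membrane receptors, read 18128 in knockout cells and 6958 in wild-type cells, 2.61-fold higher, its second probe set being under the floor on both arrays. Ifi35, a leucine zipper protein gene, read 12002 in knockout cells and 4391 in wild-type cells, 2.73-fold higher, with 3 probe sets between log2 ratios of 0.86 and 1.45. Ifi27 read 9849 in knockout cells and 4350.1 in wild-type cells, 2.26-fold higher. Just under the threshold was Xaf1, whose product opposes the apoptosis inhibitor XIAP, with 3278 in knockout cells and 1678 in wild-type cells, 1.95-fold higher. Lgals3bp, a secreted galectin-binding glycoprotein, read 5719.6 in knockout cells and 4005 in wild-type cells, 1.43-fold higher. The torsin family gene Tor3a was level by its brightest probe set, at 757 in knockout cells and 758 in wild-type cells. Another of its 3 probe sets, with 574 in knockout cells and 327 in wild-type cells, was at least 1.46-fold higher. The log2 ratio of the remaining one was -0.03. Ly6e, a membrane-anchored surface protein of thymocytes, read 19484 in knockout cells and 24487 in wild-type cells, 1.26-fold lower, but was 1.68-fold higher by its other probe set, with 5903 in knockout cells and 3504 in wild-type cells.

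Probe sets of a gene were the only repeated measurement. Over the 76 probe sets of the members, 30 were at least 2-fold higher, against 4.03% of all named probe sets, and 0 were 2-fold lower, the lowest log2 ratio being -0.50. Of the 19 members past 2-fold, 11 had a single probe set. Among the other 8, both Zbp1 and Trim30a passed 2-fold by every probe set. A further 5 members, Herc6, Sp100, Trim25, Adar and Pml, passed 2-fold only by a probe set other than the brightest. Probe sets of opposite sign were seen for 8 of the 21 members with several. The SD of log2 ratios within a gene was 0.65 over 12 members with several probe sets above the floor on both arrays, and 0.51 over all 3680 such genes. A difference of 2-fold is thus less than 2 SD of the spread between probe sets.

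**Figure D3:**
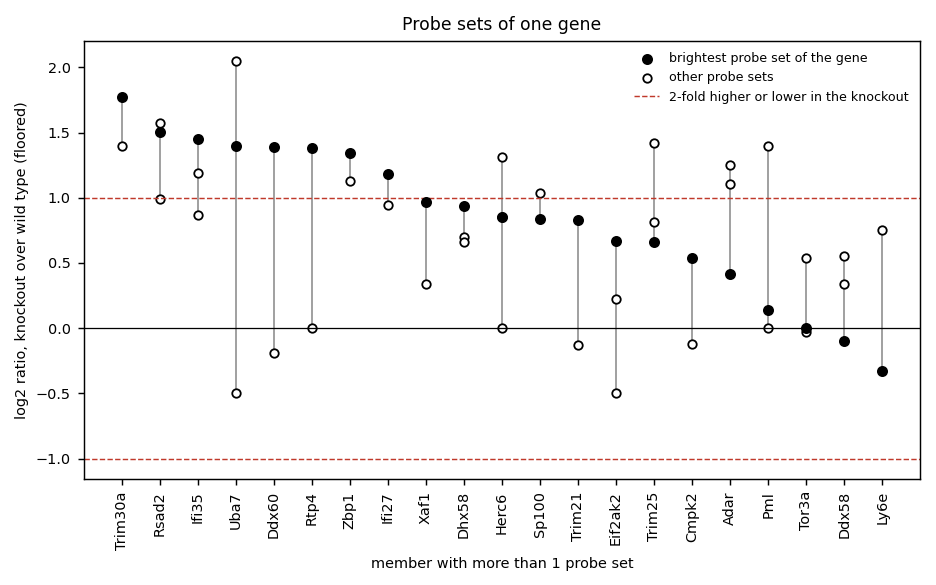
Floored log2 ratio of knockout over wild type for every probe set of the 21 members with more than 1, ordered by the gene's brightest probe set (filled circles), with the other probe sets as open circles. Red dashed lines mark 2-fold, and no probe set reaches the lower one, while Uba7, Ddx60 and Rtp4 have a brightest probe set above 2-fold and another at or below 0.

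Genes of the interferon pathway around the members held a few differences past 2-fold. Of 61 genes listed for interferons, receptors, signalling, sensing and brakes, 50 had a probe set, of which 5 (10.0%) were at least 2-fold higher, against 4.28% of all genes, and 0 were 2-fold lower. With the lower quartile of signals as floor the count was 15 of the 50, and 2682 of all 18193 genes were then past 2-fold in that direction. Their median log2 ratio was 0.10. The 5 were Irf9, Irf7, Stat2, Ifngr1 and Socs3. Of the interferon genes themselves 9 had a probe set and none passed 2-fold. Ifnb1 read 254 in knockout cells and 414 in wild-type cells, close to the floor. The 6 of the 9 that lay under the floor on both arrays were all interferon alpha family genes. Ifna5 read 607 in knockout cells and 292 in wild-type cells, at least 1.54-fold higher, and Ifnz read 2340.1 in knockout cells and 1219.8 in wild-type cells, 1.92-fold higher. Ifng, the type II interferon gene, was under the floor at 27.6 in knockout cells and 39.1 in wild-type cells.

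The 2 chains of the type I receptor had opposite signs by their brightest probe sets. Ifnar1 read 1450.3 in knockout cells and 849.8 in wild-type cells, 1.71-fold higher, but its 2 probe sets ranged from -0.86 to 0.77. Ifnar2 read 6249 in knockout cells and 9747 in wild-type cells, 1.56-fold lower, with its 3 probe sets between -0.64 and 0.02. Of the kinase genes, Jak1 read 7253 in knockout cells and 4700.2 in wild-type cells, 1.54-fold higher, with its 3 probe sets between 0.39 and 0.64. Tyk2 read 1778 in knockout cells and 1362 in wild-type cells, 1.31-fold higher, with its 2 probe sets at -0.10 and 0.38.

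Of the ISGF3 genes, Irf9 read 4603 in knockout cells and 1508 in wild-type cells, 3.05-fold higher. Stat2 read 919 in knockout cells and 191 in wild-type cells, at least 2.33-fold higher, and its second probe set had a log2 ratio of 0.61. Irf7, the factor that amplifies interferon alpha genes and is itself induced by interferon, read 3124 in knockout cells and 1047 in wild-type cells, 2.98-fold higher. Irf3, which needs no induction, read 8794 in knockout cells and 8601 in wild-type cells by the brightest of its 4 probe sets, whose log2 ratios ran from -1.21 to 0.88. Of 12 genes listed for sensing upstream of interferon, none was at least 2-fold higher, against 4.28% of all genes, and none was 2-fold lower. Their median log2 ratio was 0, but 4 of the 12 were under the floor on both arrays and so have a ratio of 0 by rule.

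Among the brakes, Socs3, a feedback inhibitor of cytokine receptors, read 6964 in knockout cells and 2318 in wild-type cells, 3.0-fold higher, and Socs1 read 1248 in knockout cells and 1542 in wild-type cells, 1.24-fold lower. Ifngr1, a chain of the type II receptor, read 16848 in knockout cells and 6080.2 in wild-type cells, 2.77-fold higher. None of 10 genes induced mainly by interferon gamma was at least 2-fold higher, against 4.28% of all genes, and none was 2-fold lower. However, 5 of the 10 were under the floor on both arrays and so could not pass. The knockout signal was the brighter one for 4 of the 10 and the wild-type signal for 6. Among those above the floor, Ciita, the class II transactivator, read 489.6 in knockout cells and 571 in wild-type cells. Cxcl9 read 515 in knockout cells and 39.8 in wild-type cells, at least 1.31-fold higher. H2-DMa read 1941 in knockout cells and 1054 in wild-type cells by its brightest probe set, 1.84-fold higher. Cd74 was 1.08-fold lower and Cxcl11 at least 1.23-fold lower. In related interferon-inducible sets, 6 of 9 GBP and IRG GTPase genes and 7 of 11 genes of MHC class I and peptide loading were at least 2-fold higher. The share of all genes was 4.28%, and the median log2 ratios of these sets were 1.35 and 1.04. Whether these sets differ from the 43 members was not tested.

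**Figure D4:**
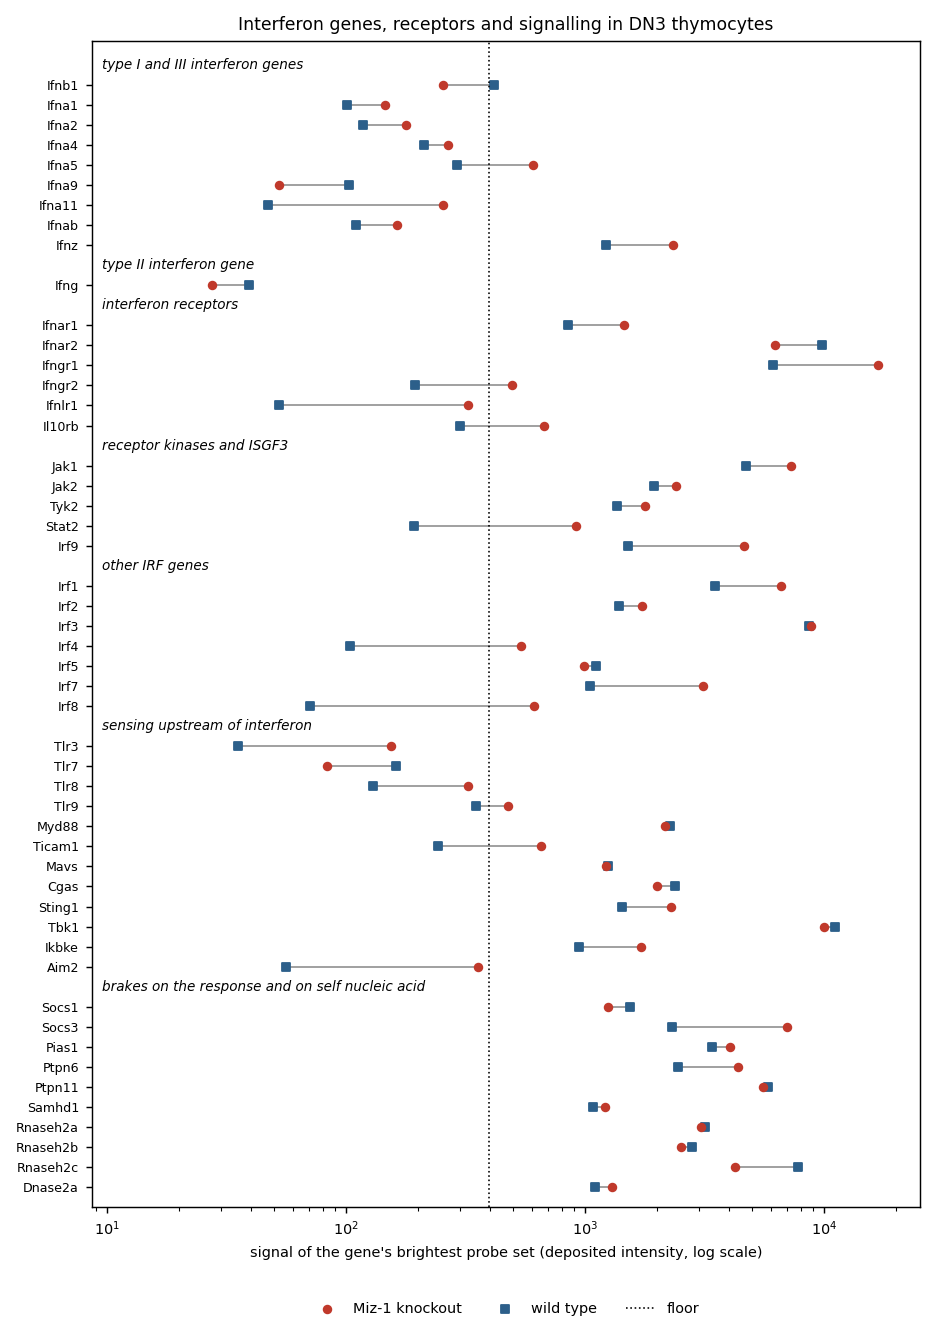
Signal of 50 genes for interferons, their receptors, signalling, sensing and brakes on the knockout array (red circles) and the wild-type array (blue squares), for the brightest probe set, on a log axis in deposited intensity units with the floor of 394 dotted. Most interferon genes lie left of the floor on both arrays, and the 5 genes past 2-fold are Irf9, Irf7, Ifngr1, Socs3 and Stat2.

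Other properties differed between the arrays along with the interferon response genes. The DN3 markers were present on both, with Ptcra at 11518 in knockout cells and 7513 in wild-type cells, and Il2ra, which encodes the CD25 used for sorting, at 23018 in knockout cells and 4992 in wild-type cells. Of 10 measured DN3 markers, 3 were at least 2-fold higher, Il2ra, Dtx1 and Cd3g, against 4.28% of all genes. Cd3g read 55163 in knockout cells and 25398 in wild-type cells, 2.17-fold higher. Notch1 was 1.97-fold and Notch3 1.84-fold higher by their brightest probe sets. Rag1 was 1.32-fold lower, and by their brightest probe sets Cd3e and Bcl11b were near level, with log2 ratios of 0.08 and 0.02. The median log2 ratio of the 10 DN3 markers was 0.75, and the knockout signal was the brighter one for 9 of them. The progenitor marker Cd44 lay near or under the floor at 331 in knockout cells and 424 in wild-type cells. Zbtb17 read 1361 in knockout cells and 3042 in wild-type cells by its brighter probe set, but 610 in knockout cells and 47.6 in wild-type cells by the other, and where its probes lie relative to the deleted part was not given in the sources used here. Of 11 measured macrophage and monocyte markers 3 were at least 2-fold higher, against 4.28% of all genes. Lyz2 read 2646 in knockout cells and 736 in wild-type cells, Csf1r 1204 in knockout cells and 529 in wild-type cells, and Ctss 947 in knockout cells and 336 in wild-type cells. The 3 probe sets of Csf1r lay between log2 ratios of 0.05 and 1.37. Adgre1 was above the floor on both arrays and near level, at 482 in knockout cells and 498 in wild-type cells. Cd14 and C1qb were above the floor on the knockout array only. Cd14 read 505 in knockout cells and 86.0 in wild-type cells, and C1qb 476 in knockout cells and 42.7 in wild-type cells. The knockout signal was the brighter one for 9 of the 11 and the wild-type signal for 2, where 51.4% of all genes were brighter in the knockout. The summed signal of the 11 was 7152 in knockout cells and 2829 in wild-type cells, and Itgam, Fcgr3, Cd68, C1qa and C1qc were under the floor on both arrays. Of 8 plasmacytoid dendritic cell markers, whose sum was 52540.2 in knockout cells and 40838 in wild-type cells, Ly6d was 2.32-fold higher and Ccr9 4.32-fold lower, both genes that thymocytes also express, and Siglech read 141 in knockout cells and 541 in wild-type cells. Of 6 NK and innate lymphoid markers, Nkg7 and Xcl1 were at least 2-fold higher, against 4.28% of all genes. Klrd1 went the other way, with 232 in knockout cells and 683 in wild-type cells, at least 1.73-fold lower. The knockout signal was the brighter one for 5 of the 6. Among these, Ncr1 read 554 in knockout cells and 43.7 in wild-type cells, and Tyrobp 450 in knockout cells and 188 in wild-type cells. The sum of the 6 was 6831 in knockout cells and 3179 in wild-type cells, most of it from Nkg7 with 4655 in knockout cells and 1942 in wild-type cells. Conventional dendritic cell markers summed to 773 in knockout cells and 1355 in wild-type cells over 5 genes, of which Zbtb46 and Flt3 were the brightest, and 0 passed 2-fold. Klf2, 1 of 4 mature T cell markers, was at least 2.67-fold higher, and Il7r was 1.84-fold higher. The 6 B cell markers did not go 1 way. Ighm and Cd22 were at least 2-fold lower, with the 11 probe sets of Ighm between log2 ratios of -1.31 and 0.54, but Cd79b was 1.86-fold, Cd79a at least 1.71-fold and Ms4a1 1.45-fold higher. None of 6 neutrophil, 7 thymic epithelial, 2 erythroid, 3 double positive and 5 progenitor markers passed 2-fold, the brightest of each list being Ngp and Mpo, Epcam and Krt5, Hba-a1 and Alas2, Cd8a and Cd8b1, and Kit and Spi1. The part of other cells in the ratios of the interferon response genes was not tested, and in sorted bulk RNA more cells of a type and more RNA per cell cannot be told apart. Xist read 55300.0 in knockout cells and 423 in wild-type cells, and the Y-linked genes Kdm5d, Eif2s3y and Uty were at least 4.52-fold, 3.64-fold and 3.17-fold lower in the knockout. The sexes of the mice therefore differed, and 0 of the 46 genes lie on a sex chromosome, but on these 2 arrays genotype and sex cannot be told apart.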

How the data were processed

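The authors deposited linear signal intensities, 1 per probe set, for 1 array of each genotype, from total RNA prepared with TRIzol, amplified and labelled with biotin, per the labels' protocols. The submitters' processing notes name GCOS version 1.4, and its settings were not given in the sources used here. Without the highest and lowest 2% of values, both arrays have a mean of 1000, and were thus scaled before deposit. Detection calls were not analysed here, and the number of arrays limits the precision.

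Of 45101 probe sets, 64 controls were left out. The platform annotation gives 34945 others 1 gene symbol, updated by gene identifier from RefSeq GRCm38.p6 for 34741 and kept for 204. Another 932 with several symbols were not assigned to a gene, and 9160 stayed unnamed. Signals were raised to a floor of 394, and log2 of knockout over wild type was taken with pandas 2.3.3 and numpy 2.4.6. The probe set of highest mean signal stood for each gene. Differences of at least 2-fold were counted, and the steps were tested on simulated data. The simulated differences were larger than 2-fold and lay in bright genes only, so calls near 2-fold or near the floor were not tested.

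Members, lists, roles and the rule for naming genes were chosen with earlier results of these data known. The text names every member, genes of the pathway lists past 2-fold, a fixed set of receptor, kinase and transcription factor genes apart from a gene not reported here, markers of other cells past 2-fold and the 2 brightest of each list, and Zbtb17, Il2ra, Cd44 and sex-linked genes. Dtx1, Cd3g, Ifit1bl2, Trim30d and further list members were added after their values were seen. The longer element and the STAT element were also added to the search.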

Additional observations from a re-analysis of the deposited data

Results flagged for a closer look

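A total of 3 probe sets that the annotation gives to several genes, among them a member, were left out of the comparison and were at least 2-fold brighter on the knockout array. The probe set given to both Isg15 and Gm9706 read 5609 in knockout cells and 1479.7 in wild-type cells, 3.79-fold higher. A probe set given to LOC100862473, Ifi203-ps and Ifi203 read 5053 in knockout cells and 1929 in wild-type cells, 2.62-fold higher, while the 2 other shared probe sets of that group had log2 ratios of 0.19 and 0.13. The probe set given to Trim30d and Trim30a read 1419 in knockout cells and 597 in wild-type cells, 2.38-fold higher. Which of the genes gives each signal cannot be told apart.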

How the results depend on the processing

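The count of members at least 2-fold higher was between 15 and 20 under the 8 alternatives, with 0 members 2-fold lower in any, and the median log2 ratio of the members lay between 0.73 and 0.94. Median centring, quantile and loess normalization each kept the same 19 members. Leaving out probe sets of shared sequence left 36 members, of which 15 were 2-fold higher. In all settings 10 members, Ifih1, Ifit1, Ifit3, Ifitm3, Oas1a, Oas2, Rsad2, Samd9l, Usp18 and Zbp1, were at least 2-fold higher. With the probe set brightest on the wild-type array, Ddx60 turned to a log2 ratio of -0.19, because another probe set was then read. Of 337 member values under the alternatives, 322 moved by less than the spread between probe sets and 14 by more. The count of pathway genes at least 2-fold higher was 15 with the lower quartile as floor. It was 3 of the 38 that are left without probe sets of shared sequence. Over all genes, the count higher was 2682 with a floor at the lower quartile, 504 with a floor at the 60th percentile and 432 with the mean over probe sets, against 779. The count lower was 2233 with a floor at the lower quartile, 927 with median centring and 323 with the mean over probe sets, against 608. No paired analysis was possible because each genotype had 1 array.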
